A study of Mus musculus with 4 samples.

Results

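The genes described here are 40 named genes of the unfolded protein response and the integrated stress response, taken by symbol from the 17476 genes in the count table: ER chaperones and degradation factors, and genes of the IRE1-XBP1, ATF6 and PERK-ATF4 branches. All 40 had reads and all 40 passed the filter on low counts, which left 14239 genes for testing. They were divided by known role into an ER folding arm of 18 genes, an ATF4 arm of 15 genes and 7 sensors and regulators. Genes were taken by name, and the rule used no measured value. The genes and their arms were nevertheless chosen with earlier results of these data known. The study compared RNA from myeloid-derived suppressor cells (MDSCs), immature myeloid cells that dampen T cell responses, of 2 genotypes, WT and Trem2_mutant, both labelled C57BL/6. For both genotypes, marrow precursors from the donors were turned into MDSCs in culture and given to NRG males that were 6 weeks old when they received TRAMP-C1 prostate tumour cells under the skin. The MDSCs were given 4 weeks after the tumour cells, and the tumours were taken 6 h after that and digested for 45 minutes. Cells carrying CD45, CD11B and GR1 were then sorted, a gate that the recipient's own myeloid cells can also enter. The sources used here state neither the kind of Trem2 mutation nor the age or sex of the donors. Each genotype had 2 libraries, named WT 1, WT 2, Trem2 mutant 1 and Trem2 mutant 3 after their columns, and the labels do not say whether they stem from different animals or cultures. The p-values therefore reflect the spread between these 4 libraries alone, which may be technical.

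Proteins that enter the endoplasmic reticulum (ER) are folded there by chaperones, and a surplus of unfolded protein is sensed by the membrane proteins IRE1 (gene Ern1), ATF6 and PERK (gene Eif2ak3). IRE1 splices Xbp1 mRNA so that it encodes an active transcription factor, and ATF6 is cut to release another; both raise the genes of ER chaperones and of the machinery that removes misfolded proteins. PERK, and outside the ER the amino acid sensor GCN2 (gene Eif2ak4), phosphorylate eIF2alpha (gene Eif2s1), which slows translation in general while Atf4 mRNA is translated more. ATF4 then raises genes for amino acid synthesis and uptake, for the CHOP factor (gene Ddit3) and for the phosphatase subunit GADD34 (gene Ppp1r15a) that reverses the phosphorylation. In myeloid cells of tumours, both branches have been linked to suppressive activity. A gene count shows neither the splicing of Xbp1 nor the phosphorylation or translation steps.

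Library totals ran from 8037733 to 10306674 reads. Trem2 mutant 1 stood apart in that Gm42418, a locus overlapping ribosomal RNA sequence, took 13.9% of its reads, against 0.258% to 1.04% in the other libraries. Trem2, the targeted gene, was measured at 44.2 CPM in WT 1 and 52.2 CPM in WT 2, against 22.9 CPM in Trem2 mutant 1 and 20.96 CPM in Trem2 mutant 3 (log2 fold change −1.14, SE 0.125, adjusted p = 0.00157, edgeR quasi-likelihood test). CPM, the unit used throughout, is the read count divided by the TMM-scaled library size and set to a common total. The gate's genes were detected, with Ptprc (CD45) at 1114 to 1363 CPM and Itgam (CD11b) at 419.7 to 653 CPM. Itgam itself differed, at 419.7 and 431 CPM in WT and 653 and 643 CPM in mutant libraries. The rise was 1.52-fold (adjusted p = 0.00429, edgeR quasi-likelihood test), while Ptprc did not pass. Ly6g, one of the GR1 antigens, was at 5.66 and 7.22 CPM in WT and 144 and 123 CPM in mutant libraries. Ly6c2, another of these antigens, was at 26.9 and 24.8 CPM in WT and 378 and 282 CPM in mutant libraries. Both genes rose by the same test. Neutrophil granule markers moved with genotype: 9 of 10 rose, against 9.55% of all genes tested. Their summed level was 2346 to 2453 CPM in WT and 20333 to 25612 CPM in mutant libraries. The read counts of Xist, an RNA that female cells make from their silenced X, were 2 and 3 for WT and 6928 and 9117 for mutant libraries. Kdm5d, a gene of the Y chromosome, had 374 and 365 reads for WT and still 51 and 55 for mutant libraries. Transcripts of both genes were thus present in the mutant libraries, whose recipients were male, and genotype and the sex of the cells cannot be told apart. In bulk RNA, a change in the share of cells of a type and a change in RNA per cell cannot be told apart either.

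Of the 40 genes, 10 rose in the mutant libraries, 0 fell and 30 did not pass (edgeR quasi-likelihood test, Benjamini-Hochberg adjusted p under 0.05 over all genes tested). Among all genes tested, 9.55% rose and 3.6% fell, so the share of the 40 that rose was 25.0% against that background. The 40 were measured more precisely, with a median standard error of 0.110 on the log2 scale at a median of 57.8 CPM. Over all genes tested these medians were 0.169 and 15.95 CPM, and the shares were not matched for precision. By unadjusted p under 0.05, 16 of the 40 passed. The 10 were Xbp1, Slc7a5, Ppp1r15a, Dnajb9, Pdia3, Hspa5, Calr, Herpud1, Hsp90b1 and Hyou1, with changes between 1.26-fold and 1.92-fold. The median log2 fold change of the 40 was 0.21, against −0.023 over all genes tested. In 25 of the 40 both mutant libraries lay above both WT libraries, and in 2, Asns and Eif2ak4, both lay below; over all genes tested the shares were 28.9% above and 31.7% below. With library totals as the only scaling, which moved the median of all genes to −0.40, 3 of the 40 rose (Xbp1, Slc7a5 and Ppp1r15a; background 4.56%) and 3 fell (Eif2ak4, Eif2s1 and Shmt2; background 30.7%).

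**Figure D1:**
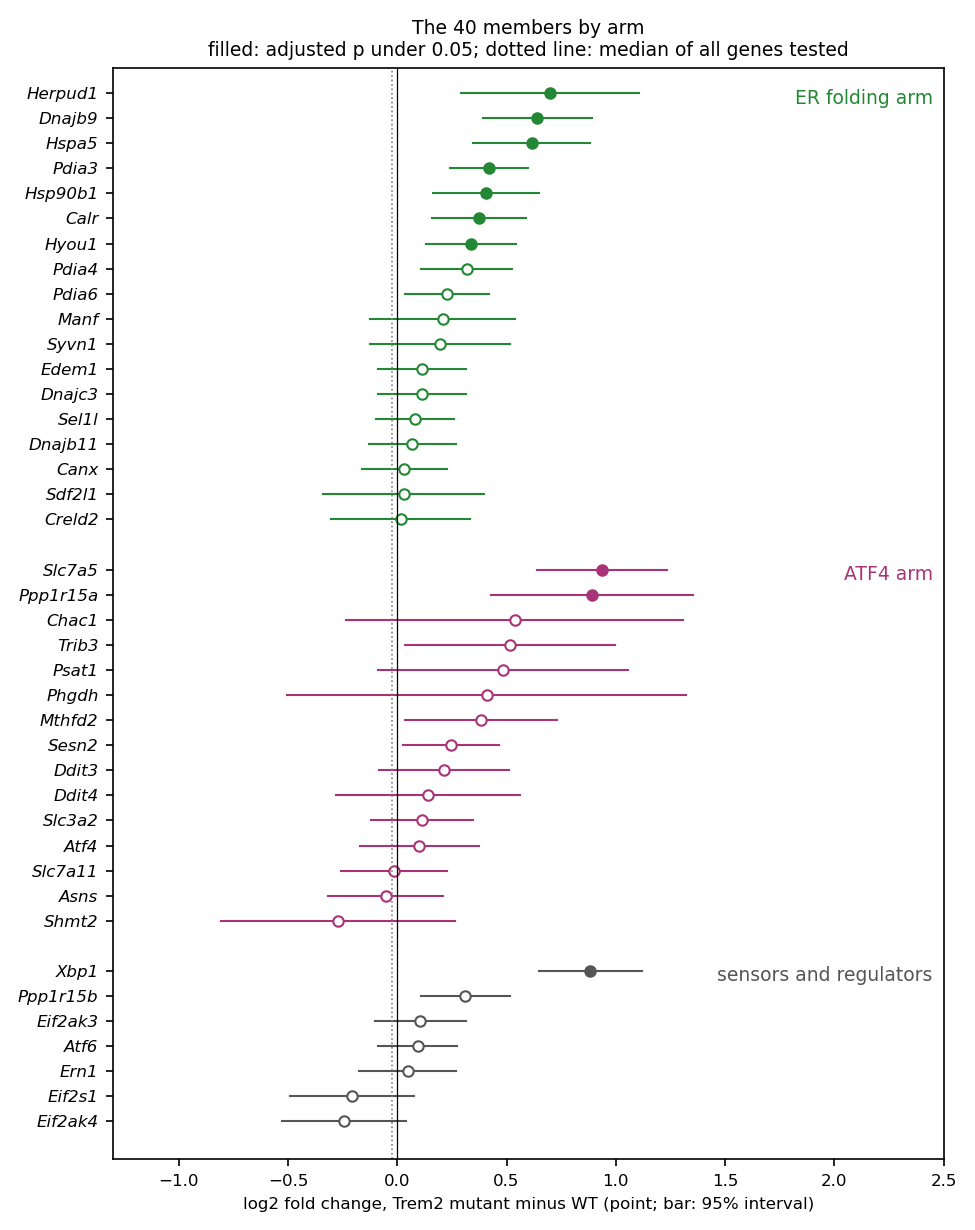
Log2 fold change (Trem2 mutant minus WT, x axis) of each of the 40 genes, by arm; points are estimates of the edgeR fit, bars 95% intervals, and filled points passed the adjusted threshold. Estimates of the ER folding arm lie between 0.015 and 0.70, and those of the ATF4 arm between −0.27 and 0.94.

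Among the sensors and regulators, Xbp1 rose and the sensors themselves did not pass. Xbp1 (ENSMUSG00000020484, GRCm38 chromosome 11, 5520659 to 5525893, plus strand), the transcription factor made active by IRE1, was measured at 199 CPM in WT 1 and 203 CPM in WT 2, against 402 CPM in Trem2 mutant 1 and 340.0 CPM in Trem2 mutant 3. Both mutant libraries were far above both WT libraries, which lay close to each other. The change was 1.85-fold (log2 fold change 0.88, SE 0.101, adjusted p = 0.00171), and it was past the threshold in all 13 alternative analyses, with log2 fold changes of 0.50 to 1.02. Its activator Ern1 was at 53.4 CPM in WT 1 and 59.9 CPM in WT 2, against 58.2 CPM in Trem2 mutant 1 and 58.8 CPM in Trem2 mutant 3. The libraries of Ern1 overlapped, and the 95% interval of its log2 fold change ran from −0.18 to 0.27. Atf6 was at 114 CPM in WT 1 and 111 CPM in WT 2, against 117 CPM in Trem2 mutant 1 and 123 CPM in Trem2 mutant 3 (log2 fold change 0.092, interval −0.087 to 0.27). Eif2ak3 (PERK) had a log2 fold change of 0.11 and an interval of −0.10 to 0.31. For these 3 sensors the intervals end below the lower bound of Xbp1, 0.65.

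Eif2ak4 (GCN2) and its substrate Eif2s1 had the only negative estimates of the group. Eif2ak4 was at 37.3 CPM in WT 1 and 32.5 CPM in WT 2, against 27.8 CPM in Trem2 mutant 1 and 31.2 CPM in Trem2 mutant 3, so its groups did not overlap, but the difference did not pass (log2 fold change −0.24, adjusted p = 0.227). Eif2s1 was at 52.1 CPM in WT 1 and 45.4 CPM in WT 2, against 38.7 CPM in Trem2 mutant 1 and 45.7 CPM in Trem2 mutant 3, and its lower WT library lay just under the higher mutant one (log2 fold change −0.21, SE 0.122, adjusted p = 0.294). Ppp1r15b, the constitutive partner of the eIF2alpha phosphatase, lay just outside the threshold at 271 CPM in WT 1 and 266 CPM in WT 2, against 350.1 CPM in Trem2 mutant 1 and 316 CPM in Trem2 mutant 3 (log2 fold change 0.31, SE 0.0874, adjusted p = 0.0552). Its adjusted p was under 0.05 with limma-voom, in the bias-adjusted form of the edgeR fit and without noncoding genes. Gm26616, an unclassified locus on the opposite strand, shares 11.4% of its exon bases, the largest such overlap among the 40 genes, and without a stated strand setting reads from the overlap cannot be told apart.

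In the ER folding arm, 7 of 18 genes rose and 0 fell, and all 18 estimates were above 0 with the main scaling. The arm's median log2 fold change was 0.22, but −0.16 with library totals alone, where all genes had −0.40. Of the 9 chaperones and cofactors 4 rose, of the 5 lectin chaperones and disulfide isomerases 2, and of the 4 genes of ER-associated degradation 1. Hspa5 encodes BiP, the main ER chaperone, which also holds the stress sensors inactive. It was measured at 332 CPM in WT 1 and 411 CPM in WT 2, against 581 CPM in Trem2 mutant 1 and 557 CPM in Trem2 mutant 3. The mutant libraries lay close together and above WT 2, itself higher than WT 1. The change was 1.53-fold (log2 fold change 0.61, SE 0.115, adjusted p = 0.0136). Dnajb9 (ERdj4), a BiP cofactor and a well-known XBP1 target, was at 38.5 CPM in WT 1 and 45.5 CPM in WT 2, against 65.2 CPM in Trem2 mutant 1 and 65.9 CPM in Trem2 mutant 3 (1.56-fold; log2 fold change 0.64, SE 0.107, adjusted p = 0.00862).

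Herpud1, a membrane protein that gathers the degradation complex, had the largest estimate of the arm and, in proportion, the widest gap between mutant libraries, at 23.2 CPM in WT 1 and 26.7 CPM in WT 2, against 47.6 CPM in Trem2 mutant 1 and 33.5 CPM in Trem2 mutant 3 (1.62-fold; log2 fold change 0.70, SE 0.175, adjusted p = 0.0389). Its log2 fold change came to 0.44 when Trem2 mutant 1 was omitted and to 0.95 when Trem2 mutant 3 was. Pdia3, a disulfide isomerase that works with the lectin chaperones, was at 152 CPM in WT 1 and 146 CPM in WT 2, against 201 CPM in Trem2 mutant 1 and 198 CPM in Trem2 mutant 3. Both pairs of libraries lay close together, and the rise was 1.34-fold (log2 fold change 0.42, SE 0.0770, adjusted p = 0.0123). Calr (calreticulin), a lectin chaperone, was at 311 CPM in WT 1 and 305 CPM in WT 2, against 424 CPM in Trem2 mutant 1 and 374 CPM in Trem2 mutant 3 (1.30-fold; log2 fold change 0.37, SE 0.0929, adjusted p = 0.0375). Its membrane-bound relative Canx (calnexin) was at 408 CPM in WT 1 and 427 CPM in WT 2, against 435 CPM in Trem2 mutant 1 and 419 CPM in Trem2 mutant 3, with overlapping groups and an interval of −0.16 to 0.23 on the log2 scale.

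Hsp90b1 (GRP94), the ER member of the HSP90 family, was at 209 CPM in WT 1 and 219 CPM in WT 2, against 309.7 CPM in Trem2 mutant 1 and 257 CPM in Trem2 mutant 3 (1.32-fold; log2 fold change 0.40, SE 0.105, adjusted p = 0.0430). A transcribed pseudogene shares 10.3% of its exon bases. Hyou1, an exchange factor for BiP, was at 135 CPM in WT 1 and 139.9 CPM in WT 2, against 184 CPM in Trem2 mutant 1 and 163 CPM in Trem2 mutant 3 (1.26-fold; log2 fold change 0.34, SE 0.0887, adjusted p = 0.0457). It lay just inside the threshold, and its log2 fold change ran from −0.043 to 0.44 over the 13 alternative analyses. The call of Hyou1 held in 6 of these 13, and those of Hsp90b1, Calr and Herpud1 in 8 each. For Pdia3 the call held in 10, and for Hspa5 and Dnajb9 in 11 each. Pdia4, another isomerase, lay just outside the threshold at 86.5 CPM in WT 1 and 88.7 CPM in WT 2, against 116 CPM in Trem2 mutant 1 and 102 CPM in Trem2 mutant 3 (adjusted p = 0.0566). Pdia6 had a log2 fold change of 0.23 (adjusted p = 0.116). The remaining genes of the arm had log2 fold changes between 0.015 and 0.21. They include Creld2, Sdf2l1 and Manf, small secreted or lumenal proteins induced by ER stress. Sdf2l1 was at 20.2 CPM in WT 1 and 16.5 CPM in WT 2, against 20.4 CPM in Trem2 mutant 1 and 17.2 CPM in Trem2 mutant 3. Creld2 was at 19.6 CPM in WT 1 and 17.1 CPM in WT 2, against 18.4 CPM in Trem2 mutant 1 and 18.6 CPM in Trem2 mutant 3. In both genes the groups overlapped and WT 1 was close to the highest mutant library or above it. Manf was at 37.1 CPM in WT 1 and 38.5 CPM in WT 2, against 49.8 CPM in Trem2 mutant 1 and 37.6 CPM in Trem2 mutant 3, raised in Trem2 mutant 1 alone. Of the degradation genes, Edem1, which takes misfolded glycoproteins out of the folding cycle, and the ubiquitin ligase pair Sel1l and Syvn1 had log2 fold changes of 0.11, 0.083 and 0.20, and the BiP cofactors Dnajc3 and Dnajb11 0.11 and 0.068. Changes of at least 1.53-fold, that of Hspa5, lay outside the intervals of all of these genes.

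**Figure D2:**
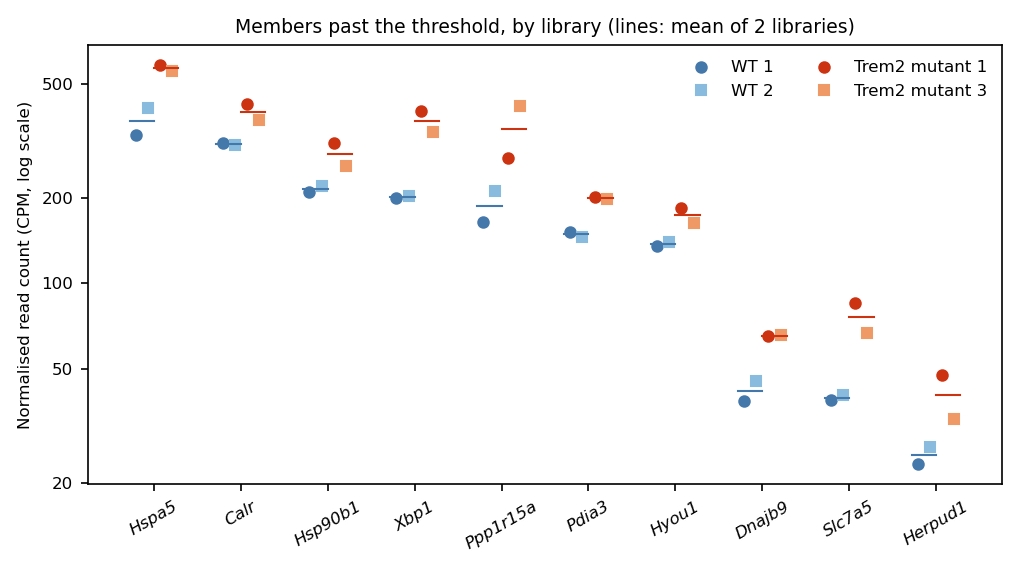
Normalised read count (CPM, log scale) of the 10 genes past the threshold in each of the 4 libraries; lines are means of the 2 libraries of a genotype. In all 10 genes both mutant libraries lie above both WT libraries.

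A known element of the response recurred in the promoters of the ER folding arm. Promoter sequence was not used to choose the genes. They were chosen as genes of this response, however, so the recurrence is not an independent finding. The ER stress response element, bound by ATF6 together with the general factor NF-Y, was searched on both strands as CCAAT and CCACG with 9 bases between them, in windows from 250 bases before to 50 bases after each RefSeq start (GRCm38.p6). Windows were held for 35 of the 40 genes. The element was found in 8 of the 16 ER folding genes with a window, in 0 of 14 ATF4 arm genes and 0 of 5 sensors and regulators, against 0.137% of all 27025 genes with a window. The 8 matches are shown because they mark which chaperone genes carry the full element near the start, with the element in capitals and 5 flanking bases on each side, on the gene's strand:
Hspa5 (chr2:34772020-34772048, gene on the plus strand): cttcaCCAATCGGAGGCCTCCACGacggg
Hsp90b1 (chr10:86705633-86705661, gene on the minus strand): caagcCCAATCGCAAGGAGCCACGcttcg
Calr (chr8:84847070-84847098, gene on the minus strand): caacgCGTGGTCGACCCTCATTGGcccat
Canx (chr11:50325795-50325823, gene on the minus strand): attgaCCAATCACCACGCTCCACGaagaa
Pdia6 (chr12:17266486-17266514, gene on the plus strand): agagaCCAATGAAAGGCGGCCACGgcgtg
Dnajc3 (chr14:118937822-118937850, gene on the plus strand): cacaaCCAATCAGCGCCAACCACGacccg
Creld2 (chr15:88819515-88819543, gene on the plus strand): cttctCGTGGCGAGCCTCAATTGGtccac
Syvn1 (chr19:6046527-6046555, gene on the plus strand): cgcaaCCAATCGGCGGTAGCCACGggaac
Hsp90b1 held a second match on the other strand, and those of Calr and Creld2 were also on the strand opposite to the gene, where the element reads from CGTGG to ATTGG. Of these 8 genes, 3 rose (Hspa5, Hsp90b1 and Calr), with log2 fold changes of the 8 from 0.015 to 0.61. Of the 8 ER folding genes with a window and no match, 3 also rose (Dnajb9, Pdia3 and Herpud1). A full match was therefore present in genes that rose and in genes that did not pass. A match is a string of letters and does not show binding. The shorter string CCACG alone was in 35.5% of all genes with a window and in 15 of the 16 ER folding genes. TGACGTG, the core of the unfolded protein response element, was also searched on both strands. It was in 1 of the 16 ER folding genes, Hspa5, against 2.22% of all genes with a window. Among the 14 ATF4 arm genes and the 5 sensors and regulators it was in 0. The Hspa5 match stands in lower case in the window below.

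The window of Hspa5 (300 bases, chr2:34771840-34772139, plus strand) is given whole because this gene has the best known promoter of the response. The exact element is in capitals, and other CCAAT strings nearby lack an exact CCACG partner at the set distance:
Hspa5 promoter: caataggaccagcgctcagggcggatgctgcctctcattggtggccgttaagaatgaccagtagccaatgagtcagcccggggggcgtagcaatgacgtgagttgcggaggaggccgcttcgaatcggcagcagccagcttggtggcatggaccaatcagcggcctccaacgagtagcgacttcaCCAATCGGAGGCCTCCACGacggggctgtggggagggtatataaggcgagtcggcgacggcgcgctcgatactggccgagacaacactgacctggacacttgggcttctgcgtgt

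In the ATF4 arm, 2 of 15 genes rose and 0 fell. They were Slc7a5 and Ppp1r15a, and the enzymes of amino acid and one-carbon metabolism did not pass. The arm's median log2 fold change was 0.25, and −0.14 with library totals alone against −0.40 for all genes. Slc7a5 (ENSMUSG00000040010, GRCm38 chromosome 8, 121881150 to 121907694, minus strand), the light chain of the LAT1 carrier of large neutral amino acids, was at 38.8 CPM in WT 1 and 40.6 CPM in WT 2, against 85.4 CPM in Trem2 mutant 1 and 67.0 CPM in Trem2 mutant 3. Both mutant libraries were well above the closely matched WT libraries. The change was 1.92-fold (log2 fold change 0.94, SE 0.128, adjusted p = 0.00381), past the threshold in all 13 alternatives with log2 fold changes from 0.55 to 1.12. Its heavy chain partner Slc3a2 was at 307 CPM in WT 1 and 298 CPM in WT 2, against 354 CPM in Trem2 mutant 1 and 300.2 CPM in Trem2 mutant 3, with overlapping groups (log2 fold change 0.11, SE 0.100, adjusted p = 0.489). Slc7a11, the cystine carrier that pairs with the same heavy chain, had the highest read count of the 40 genes at 944 CPM in WT 1 and 1066 CPM in WT 2, against 973 CPM in Trem2 mutant 1 and 1016 CPM in Trem2 mutant 3. Its groups overlapped, and the 95% interval of −0.26 to 0.23 leaves out changes the size of that of Slc7a5.

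Ppp1r15a (GADD34), whose transcript also responds to growth signals and stress outside the ER, was at 163 CPM in WT 1 and 211 CPM in WT 2, against 275 CPM in Trem2 mutant 1 and 419.9 CPM in Trem2 mutant 3. The mutant libraries were both above the WT libraries but far apart from each other. The change was 1.86-fold (log2 fold change 0.89, SE 0.199, adjusted p = 0.0257). Its call was lost with DESeq2 (adjusted p = 0.0833) and without WT 1 (adjusted p = 0.154), and its log2 fold change came to 0.57 when Trem2 mutant 3 was omitted and to 1.17 when Trem2 mutant 1 was. Genes that respond to tissue digestion also differed between the libraries: Egr1 was at 433 CPM in WT 1 and 598 CPM in WT 2, against 1017 CPM in Trem2 mutant 1 and 1472 CPM in Trem2 mutant 3 (log2 fold change 1.27, SE 0.205, adjusted p = 0.00734). Of 6 such genes 1 rose, Egr1, against 9.55% of all genes tested. Trem2 mutant 3 was the higher mutant library for Egr1, as for Ppp1r15a, while in the other 5 (Fos, Fosb, Jun, Hspa1a and Hspa1b) Trem2 mutant 1 was the higher. The list had summed levels of 1458 and 1764 CPM in WT and 2679.6 and 2627 CPM in mutant libraries; their part in the result was not tested.

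Atf4 itself and its target Ddit3 did not pass. Atf4 was at 214 CPM in WT 1 and 175 CPM in WT 2, against 194 CPM in Trem2 mutant 1 and 223 CPM in Trem2 mutant 3, and the ranges of the genotypes overlapped (log2 fold change 0.10, interval −0.17 to 0.37). Ddit3, the CHOP factor linked to cell death under lasting stress, was at 27.6 CPM in WT 1 and 31.1 CPM in WT 2, against 31.1 CPM in Trem2 mutant 1 and 36.9 CPM in Trem2 mutant 3 (log2 fold change 0.21, interval −0.083 to 0.51). Trem2 mutant 1 lay above WT 2 by less than the rounding shows, and Trem2 mutant 3 was the highest. Trib3, a pseudokinase induced through CHOP, was at 8.92 CPM in WT 1 and 7.55 CPM in WT 2, against 13.3 CPM in Trem2 mutant 1 and 10.3 CPM in Trem2 mutant 3. Chac1, which breaks down glutathione, was at 2.83 CPM in WT 1 and 3.06 CPM in WT 2, against 5.39 CPM in Trem2 mutant 1 and 3.22 CPM in Trem2 mutant 3. For both, Trem2 mutant 1 was the highest library and the intervals were wide, 0.035 to 0.996 and −0.24 to 1.31. Sesn2 and Ddit4, inhibitors of the mTORC1 kinase, had log2 fold changes of 0.25 (adjusted p = 0.130) and 0.14 (adjusted p = 0.644).

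Asns, asparagine synthetase and a standard readout of the amino acid response, was at 25.0 CPM in WT 1 and 26.1 CPM in WT 2, against 24.9 CPM in Trem2 mutant 1 and 24.3 CPM in Trem2 mutant 3. Its 4 libraries differed little, and the interval of its log2 fold change ran from −0.32 to 0.21. The serine synthesis enzymes were low. Phgdh was at 3.05 CPM in WT 1 and 1.75 CPM in WT 2, against 3.95 CPM in Trem2 mutant 1 and 2.47 CPM in Trem2 mutant 3, with overlapping groups. Psat1 was at 8.05 CPM in WT 1 and 8.10 CPM in WT 2, against 13.9 CPM in Trem2 mutant 1 and 8.81 CPM in Trem2 mutant 3, and stood out in Trem2 mutant 1 alone. The mitochondrial folate enzymes had estimates of opposite sign. Shmt2 was at 12.2 CPM in WT 1 and 10.4 CPM in WT 2, against 11.3 CPM in Trem2 mutant 1 and 7.52 CPM in Trem2 mutant 3 (log2 fold change −0.27, SE 0.231, adjusted p = 0.469). Mthfd2 was at 13.3 CPM in WT 1 and 11.8 CPM in WT 2, against 16.1 CPM in Trem2 mutant 1 and 16.7 CPM in Trem2 mutant 3 (log2 fold change 0.38, SE 0.150, adjusted p = 0.137). The groups overlapped for Shmt2 and not for Mthfd2. None of the 5 enzymes passed (1 had an unadjusted p under 0.05 by edgeR, and 0 passed with DESeq2 or limma-voom).

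The string TGATGNAA, the core of the composite element bound by ATF4 with C/EBP factors, was searched on both strands of the same windows. It was found in 4 of 14 ATF4 arm genes, in 1 of 16 ER folding genes (Herpud1) and in 4.51% of all genes with a window. The matches are shown because they mark ATF4 arm genes that did not pass, and Herpud1, which rose, with the string in capitals. Those that begin with TT are on the strand opposite to the gene:
Asns (chr6:7693220-7693237, gene on the minus strand): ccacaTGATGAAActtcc
Chac1 (chr2:119351044-119351061, gene on the plus strand): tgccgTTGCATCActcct
Slc7a11 (chr3:50443667-50443684, gene on the minus strand): gtggcTGATGCAAacctg
Slc7a11 (chr3:50443648-50443665, gene on the minus strand): agaatTTGCATCAtcatg
Trib3 (chr2:152344034-152344051, gene on the minus strand): caggtTTACATCAgccgg
Herpud1 (chr8:94386312-94386329, gene on the plus strand): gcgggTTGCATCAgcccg
The log2 fold changes of the 4 ATF4 arm genes ran from −0.054 to 0.54, and 0 of the 4 passed. Of the 10 ATF4 arm genes with a window and no match, 1 rose, Ppp1r15a. Slc7a5 had no window in the table. Herpud1, the ER folding gene with this string, is the one with the largest estimate in its arm. It is a single gene, and a link between string and estimate was not tested.

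More genes passed in the ER folding arm than in the ATF4 arm, while the medians of the arms were close. In the ER folding arm 38.9% of genes rose and in the ATF4 arm 13.3%, against 9.55% of all genes tested, while the medians were 0.22 and 0.25. Precision was lower in the ATF4 arm: the median standard error was 0.150 on the log2 scale at a median of 31.2 CPM, against 0.0913 at 99.4 CPM in the ER folding arm. Over all genes tested it was 0.169 at 15.95 CPM, so both arms were measured more precisely than that background. The arm mean of log2(CPM), relative to the mean of the WT libraries, was 0.34 in Trem2 mutant 1 and 0.20 in Trem2 mutant 3 for the ER folding arm. For the ATF4 arm these values were 0.41 and 0.20. Over all genes with reads in every library they were 0.049 and 0.036. The mean of the ER folding arm minus that of the ATF4 arm, which no scaling of a library can move, came to −0.021 (WT 1), 0.021 (WT 2), −0.070 (Trem2 mutant 1) and 0.0074 (Trem2 mutant 3). The genotypes overlapped in this balance of the arms, and with 2 libraries against 2 an exact permutation test of a single value cannot go below p = 0.333 (two-sided). Trem2 mutant 1 was above Trem2 mutant 3 in 14 of 18 ER folding genes and 10 of 15 ATF4 arm genes, against 7046 of 14239 genes tested.

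**Figure D3:**
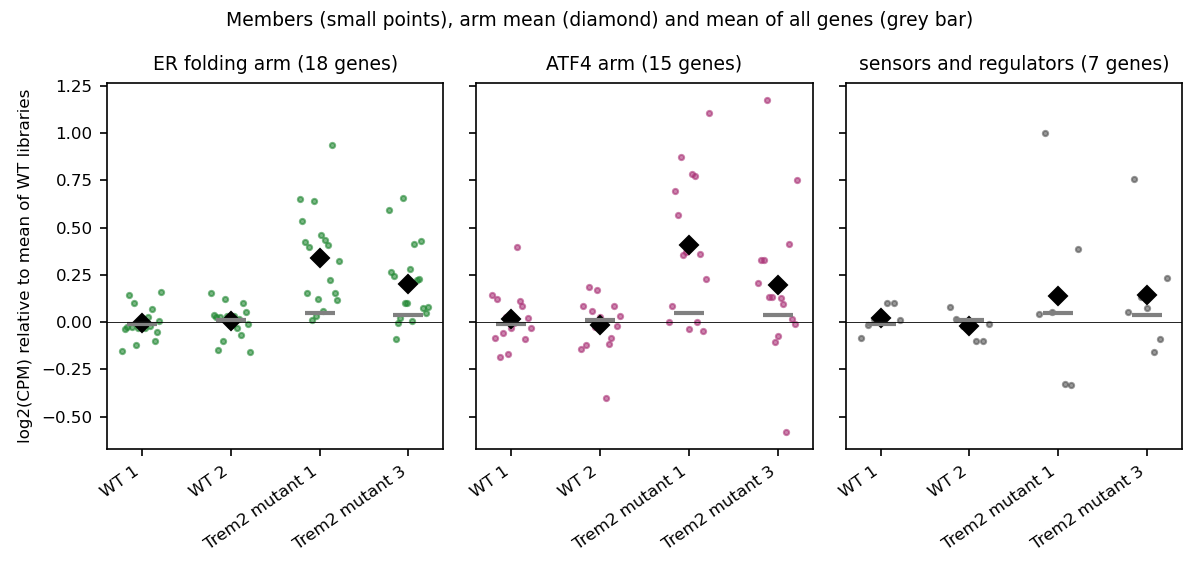
Log2(CPM) of each gene in each library, relative to the mean of its WT libraries (y axis); small points are genes, diamonds the arm mean and grey bars the mean of all genes tested with reads in every library. Diamonds of both arms lie above the grey bar in both mutant libraries, and points of the ATF4 arm spread more widely.

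Per kilobase of exon, Calr was the most abundant transcript of the 40 in WT libraries (107 CPM per kilobase), followed by Canx (89.0), Hspa5 (87.9), Slc3a2 (85.8) and Atf4 (82.5). Canx, Hspa5, Slc3a2 and Atf4 were close: Hspa5 ranged from 78.6 to 97.2 and Atf4 from 74.4 to 90.6 between the WT libraries, so their order is not fixed. In mutant libraries Calr and Hspa5 stood at 139 and 135 CPM per kilobase, with Ppp1r15a at 118 and Xbp1 at 114, from 63.8 and 61.9 in WT. The lowest were the enzymes Phgdh, Psat1, Mthfd2 and Shmt2 with Chac1 and Trib3, all at 3.88 CPM per kilobase or less in WT.

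Of 109 genes of the same pathways outside the 40, 97 were tested, and 7 of them (7.22%) rose and 3 fell, against 9.55% and 3.6% of all genes. Whether this share differs from that of the 40 was not tested. Of 25 other ER folding, redox and quality control genes 5 rose and 0 fell. Ero1l, the oxidase that recharges disulfide isomerases, was at 148 CPM in WT 1 and 167 CPM in WT 2, against 295 CPM in Trem2 mutant 1 and 239 CPM in Trem2 mutant 3 (1.69-fold; log2 fold change 0.76, SE 0.118, adjusted p = 0.00622). P4hb, the founding disulfide isomerase, was at 380.1 CPM in WT 1 and 402 CPM in WT 2, against 661 CPM in Trem2 mutant 1 and 547 CPM in Trem2 mutant 3 (1.54-fold; log2 fold change 0.63, SE 0.111, adjusted p = 0.0109). In both genes the groups did not overlap. Txndc5, a related isomerase with few reads, was at 6.64 CPM in WT 1 and 8.10 CPM in WT 2, against 17.6 CPM in Trem2 mutant 1 and 12.5 CPM in Trem2 mutant 3 (2.03-fold; log2 fold change 1.02, SE 0.225, adjusted p = 0.0246). Selenok, an ER selenoprotein, rose 1.30-fold. The fifth, Ube2j1, a ubiquitin-conjugating enzyme of ER-associated degradation named after its value was seen, rose 1.23-fold with the main scaling and had a log2 fold change of −0.078 with library totals alone. Ero1lb, the paralogue of Ero1l, did not pass and had the opposite sign at 30.6 CPM in WT 1 and 36.3 CPM in WT 2, against 23.8 CPM in Trem2 mutant 1 and 26.3 CPM in Trem2 mutant 3 (log2 fold change −0.41, SE 0.129, adjusted p = 0.0748), with groups that did not overlap.

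Of 22 translocon, signal peptidase and coat genes, many of them known XBP1 targets in secretory cells, 0 rose and 0 fell by edgeR (3 had an unadjusted p under 0.05). Their median log2 fold change was 0.025. Of 13 genes of tRNA charging and export, which ATF4 raises with the amino acid enzymes, 0 rose and 1 fell, with a median of −0.11. The fall was that of Eprs, at 116 CPM in WT 1 and 103 CPM in WT 2, against 87.0 CPM in Trem2 mutant 1 and 86.1 CPM in Trem2 mutant 3 (1.27-fold lower; log2 fold change −0.34, SE 0.0859, adjusted p = 0.0398). Of 17 other ATF4 targets tested, 1 rose and 2 fell. Gadd45a, a growth arrest gene, was at 108 CPM in WT 1 and 121 CPM in WT 2, against 179 CPM in Trem2 mutant 1 and 170.2 CPM in Trem2 mutant 3 (1.52-fold; log2 fold change 0.61, SE 0.0872, adjusted p = 0.00455). Atf5, a factor related to ATF4, was at 78.5 CPM in WT 1 and 74.8 CPM in WT 2, against 61.3 CPM in Trem2 mutant 1 and 53.7 CPM in Trem2 mutant 3 (1.33-fold lower; log2 fold change −0.41, SE 0.0975, adjusted p = 0.0310). Gdf15, a stress-induced secreted factor, was at 19.5 CPM in WT 1 and 18.9 CPM in WT 2, against 9.94 CPM in Trem2 mutant 1 and 4.30 CPM in Trem2 mutant 3 (2.72-fold lower; log2 fold change −1.45, SE 0.313, adjusted p = 0.0230). Its mutant libraries were far apart, so that its log2 fold change ran from −2.15 to −0.93 when single libraries were omitted, and omitting either WT library ended its call. Omitting either WT library, or using DESeq2, also ended the calls of Eprs and Atf5. Of 20 other sensors and eIF2 factors 1 rose, Creb3l2, an ER-anchored factor of the ATF6 type (1.59-fold; log2 fold change 0.67, SE 0.166, adjusted p = 0.0367). Of the genes outside the 40 that rose, P4hb, Txndc5, Selenok, Ube2j1 and Creb3l2 lost their calls when either WT library was omitted, and Ero1l and Gadd45a when WT 1 was. Library totals alone ended the calls of all these except Txndc5, and DESeq2 those of Selenok, Ube2j1 and Creb3l2.

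**Figure D4:**
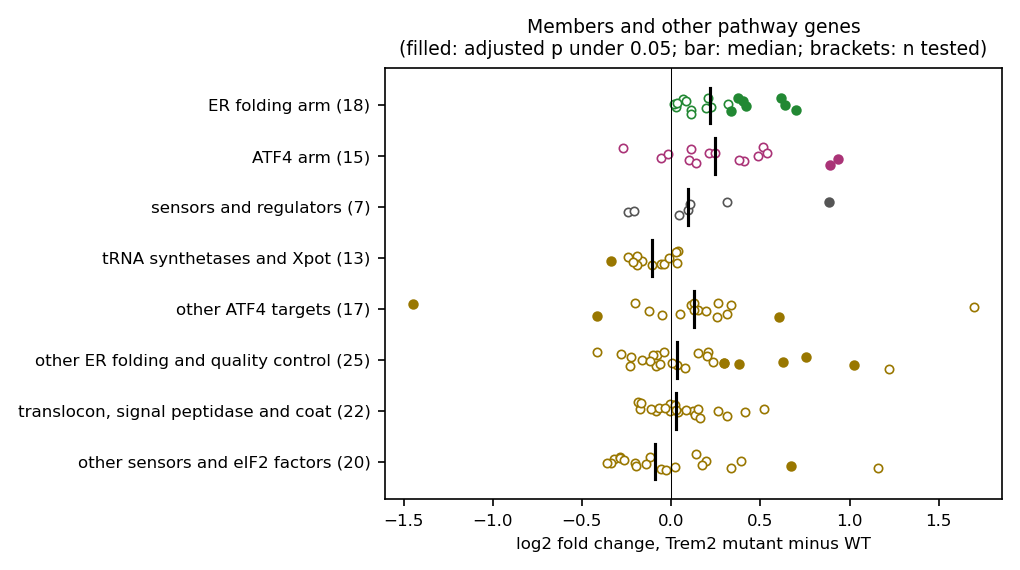
Log2 fold change (x axis) of every tested gene of the 3 groups of the 40 and of 5 lists of other pathway genes; filled points passed the adjusted threshold and bars are list medians. Medians run from −0.11 for tRNA charging genes to 0.25 for the ATF4 arm.

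Markers of other cell types moved with genotype beside these results. Over all genes tested, 9.55% rose and 3.6% fell. Of 6 fibroblast markers, of cells that the sort for CD45 should remove, 5 were tested and 3 rose, with summed levels of 108 to 158 CPM in WT and 399 to 444 CPM in mutant libraries. Of 7 macrophage markers 4 rose, with summed levels of 1388 and 1497 CPM in WT and 1532 and 1338 CPM in mutant libraries, which overlap. The members of this list did not move together: C1qa, C1qb, C1qc and Apoe rose, while the more abundant Csf1r (log2 fold change −0.28, adjusted p = 0.0784) and Adgre1 (−0.20, adjusted p = 0.150) did not pass and were lower in both mutant libraries than in both WT libraries. Of 4 eosinophil markers 3 were tested and 3 rose, with summed levels of 71.8 to 72.0 CPM in WT and 151 to 192 CPM in mutant libraries. Their part in the result, and that of the neutrophil granule genes given above, was not tested. Among plasma and B cell markers, Jchain was at 1.31 CPM in WT 1 and 1.20 CPM in WT 2, against 0 CPM in Trem2 mutant 1 and 0.215 CPM in Trem2 mutant 3, and fell (adjusted p = 0.0321) on 0 to 12 reads per library. Igkc was at 5.44 CPM in WT 1 and 9.52 CPM in WT 2, against 1.20 CPM in Trem2 mutant 1 and 1.40 CPM in Trem2 mutant 3, and fell (adjusted p = 0.00592). Sdc1, a surface protein of plasma cells, was higher in both mutant libraries and did not pass, at 1.52 CPM in WT 1 and 2.96 CPM in WT 2, against 11.0 CPM in Trem2 mutant 1 and 4.19 CPM in Trem2 mutant 3 (log2 fold change 1.75, SE 0.514, adjusted p = 0.0641). Of 9 plasma and B cell markers 7 were analysed here, with summed levels of 76.4 and 80.2 CPM in WT and 102 and 78.2 CPM in mutant libraries, and 1 rose, Irf4, which myeloid cells also express. Irf4 was a large part of these sums, at 34.0 and 34.6 CPM in WT and 64.7 and 54.2 CPM in mutant libraries. In 4 of the 7 (Ighm, Igkc, Jchain and Ms4a1) both mutant libraries lay below both WT libraries. In 2 (Irf4 and Sdc1) they lay above, and for Cd79a the groups overlapped. Over all genes tested, 31.7% lay below and 28.9% above in this way. The part of these genes was not tested. Of 4 epithelial markers 2 were tested and 1 fell, Cdh1, at 151 CPM in WT 1 and 158 CPM in WT 2, against 82.5 CPM in Trem2 mutant 1 and 85.0 CPM in Trem2 mutant 3 (1.84-fold lower; log2 fold change −0.88, SE 0.0782, adjusted p = 0.000635). Krt8 was at 0 to 0.599 CPM and Epcam at 0.322 to 1.20 CPM over the 4 libraries.

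The calls depended on single libraries. Without WT 1, 2 of the 40 rose, Xbp1 and Slc7a5, against 3.25% of all genes, and 0 of the ER folding arm. Without WT 2, 5 rose (background 4.8%). Without Trem2 mutant 1, 6 rose (background 9.98%), and without Trem2 mutant 3, 16 rose (background 14.2%). Through these omissions the median log2 fold change of the ER folding arm stayed between 0.17 and 0.37 and that of the ATF4 arm between 0.14 and 0.37. Xbp1 and Slc7a5 passed in all 4 omissions, Hspa5, Dnajb9 and Ppp1r15a in 3, Pdia3 in 2, and Hsp90b1, Hyou1, Calr and Herpud1 in 1. Hspa5 was at 0.47 to 0.77 and lost its call without WT 1. In every omission the 10 genes kept a positive log2 fold change. With both mutant libraries above both WT libraries in each of the 10, this sign adds no further support.

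**Figure D5:**
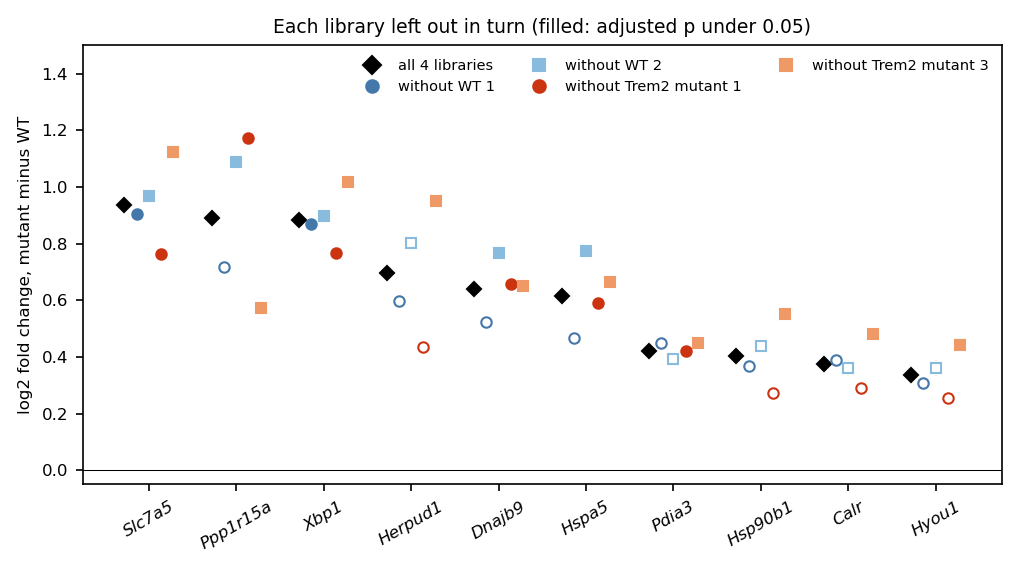
Log2 fold change (y axis) of the 10 genes past the threshold with all 4 libraries (black) and with each library left out; filled points passed the adjusted threshold. Slc7a5 and Xbp1 are filled throughout, and Calr, Hsp90b1, Herpud1 and Hyou1 in 1 omission each, that of Trem2 mutant 3.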

How the data were processed

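RNA was measured in 4 libraries, 2 of each genotype. The authors deposited 1 table of read counts for Ensembl genes, whole numbers that differ in total between libraries and so carry no scaling. The submitters' processing notes name FastQC, STAR (2.5.2a), DESeq2 and build GRCm38 (mm10). Which program counted the reads, whether it used strand, and from which annotation, the sources used here do not state. Rows with fewer than 11 reads in all are not in the table. Of 17476 IDs, 17422 matched GENCODE M21, used for symbols, classes, positions and exon lengths.

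Counts were fitted with edgeR 4.0.16 in R 4.3.3 (filterByExpr, TMM, then glmQLFit with default settings and a two-sided glmQLFTest), with genotype as the only term, over 14239 genes, with Benjamini-Hochberg adjustment over all of them at 0.05. The fit had 2 residual and 5.71 prior degrees of freedom. Standard errors are the log2 fold change over the root of F, and intervals are 95%. A floor of 3 counts is 0.322 to 0.359 CPM, covering counting error only; the 40 genes were above it in every library.

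Alternatives were RLE, library totals, upper quartile, no filter, a stricter filter (10 reads in 2 libraries, mean of 1 CPM), DESeq2 1.42.0, limma-voom (limma 3.58.1), the bias-adjusted edgeR form, leaving out 4428 noncoding, pseudogene and mitochondrial genes, and leaving out each library, where the lone library of a group is assumed to vary like the other group. The 40 genes, their arms and all lists were chosen with earlier results of these data known. All 40 are described; from other pathway lists up to 4 called genes with the lowest p are named. Single marker genes (those of the sex chromosomes, digestion and other cell types), Ube2j1, Ero1lb and Gm42418 were named after their values were seen. The numbers 1 and 3 of the mutant columns match the labels only for 1, so the other column was used as a mutant library without a label number. Promoter windows are from RefSeq (GRCm38.p6); 35 of 40 genes matched by symbol. Protein sequences were not used here.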

Additional observations from a re-analysis of the deposited data

How the results depend on the processing

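With all 4 libraries and TMM, 10 of the 40 genes rose and 0 fell. RLE, no filter, the stricter filter, DESeq2, limma-voom, the bias-adjusted form and leaving out noncoding genes gave 8 to 12 rises and 0 falls. Over all genes tested in these settings, 7.65% (no filter) to 11.7% (without noncoding genes) rose. The share that fell was 1.45% (DESeq2) to 4.92% (without noncoding genes). In the sensors and regulators 2 genes rose, not 1, with limma-voom, the bias-adjusted form and without noncoding genes, as Ppp1r15b passed. With DESeq2, 1 ATF4 arm gene rose, 4 other pathway genes rose and 1 fell, and 198 of all genes fell instead of 513. With upper quartile scaling 4 ER folding genes rose (background 8.56%). In that setting Sdf2l1 (−0.0073), Creld2 (−0.021) and Canx (−0.0040) had negative log2 fold changes. Library totals alone moved the median of all genes from −0.023 to −0.40, with 650 genes higher and 4365 lower. Of the 40 genes 3 rose and 3 fell, with 0 rises in the ER folding arm, 1 fall in the ATF4 arm and 2 among sensors and regulators; of the other pathway genes 1 rose and 40 fell. The arm medians were −0.16 (ER folding) and −0.14 (ATF4), or 0.23 and 0.26 above the median of all genes. Log2 fold changes that turned negative with totals were Hyou1 −0.043, Sdf2l1 −0.35, Manf −0.18, Creld2 −0.36, Dnajb11 −0.30, Dnajc3 −0.26, Calr −0.0055, Canx −0.34, Pdia4 −0.062, Pdia6 −0.15, Edem1 −0.26, Sel1l −0.29, Syvn1 −0.19, Atf4 −0.27, Ddit3 −0.15, Sesn2 −0.14, Ddit4 −0.25, Slc3a2 −0.27, Ern1 −0.33, Atf6 −0.28, Eif2ak3 −0.27, Ppp1r15b −0.067 and Ube2j1 −0.078; none of them passed.

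With 1 library left out, rises among the 40 numbered 2 to 16, 0 to 9 in the ER folding arm, 1 to 5 in the ATF4 arm, 1 to 2 among sensors and regulators and 0 to 11 in other pathway genes (falls 0 to 5); over all genes, 489 to 2090 rose and 92 to 912 fell. Arm medians were 0.17 to 0.37 (ER folding) and 0.14 to 0.37 (ATF4), and their difference −0.099 to 0.032, with −0.029 for all 4 libraries, so its sign is not fixed. Log2 fold changes of 9 uncalled genes changed sign, with ranges of −0.00039 to 0.078 (Canx), −0.10 to 0.38 (Ddit4), −0.034 to 0.13 (Ern1), −0.11 to 0.18 (Sdf2l1), −0.081 to 0.12 (Creld2), −0.035 to 0.25 (Atf4), −0.10 to 0.074 (Slc7a11), −0.0020 to 0.25 (Slc3a2) and −0.58 to 0.014 (Shmt2). The cause of these shifts was not tested. No paired analysis was possible because the columns of the genotypes share only the number 1. Depth limits the low enzymes most: Phgdh had 16 to 33 reads per library.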
